A study of Mus musculus with 20 samples.

Results

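The 10 genes described here mark the course by which adult skeletal muscle is made and repaired. They are the satellite cell gene *Pax7*, the 4 myogenic regulatory factors *Myf5*, *Myf6*, *Myod1* and *Myog*, the fusion gene *Mymk*, the embryonic and perinatal myosin heavy chain genes *Myh3* and *Myh8*, and the acetylcholine receptor subunit genes *Chrna1* and *Chrng*. The rule that chose them is a list of names with no threshold on measured values, and all 10 were found among the 54532 genes of the count table. This list and the other gene lists used below were chosen with earlier results of these data known. RNA-seq was performed on condylar heads of the temporomandibular joint (TMJ), the joint between jaw and skull, dissected with some of the bone under the cartilage. All mice were Acan-CreERT2;Loxl2 fl/fl, in which Cre recombinase under the aggrecan promoter acts after tamoxifen in aggrecan-expressing cells, mainly chondrocytes. Treatment began at 6 months of age, and the joints were taken 4 months later. The 8 control libraries came from vehicle-treated mice. The 12 libraries labelled *Loxl2* knockout came from mice given tamoxifen at 75 mg/kg on 5 consecutive days and then monthly, so that tamoxifen and the deletion cannot be told apart. Both groups held males and females, but neither sex nor batch is given for a single library, and no comparison within a sex or batch could be made.

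In adult muscle, satellite cells lie between the fibre and its basal lamina and are marked by the transcription factor PAX7. When fibres are damaged, these cells divide and switch on MYF5 and MYOD1, then myogenin (encoded by *Myog*), and fuse through the membrane protein myomaker (encoded by *Mymk*) into new fibres, which transiently use the embryonic and perinatal myosins. The fetal acetylcholine receptor holds a gamma subunit (*Chrng*), which gives way to the epsilon subunit (*Chrne*) at the mature endplate, and loss of innervation brings *Myog*, *Chrna1* and *Chrng* up in the fibre.

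Myogenic regulatory factors are basic helix-loop-helix proteins that bind E-boxes, short elements of the form CANNTG, in the promoters of muscle genes. Promoter sequences were given by RefSeq (GRCm38.p6) for 7 of the 10 genes, not for *Myf6*, *Myod1* and *Mymk*. The 250 bases before the start are shown, with every E-box in capitals, to set the receptor subunit genes, whose E-boxes include palindromic ones, beside the factor gene *Myog*, whose E-boxes do not. These stretches belong to *Myog* (chr1:134289754-134290003, plus strand), *Chrna1* (chr2:73580339-73580588, minus strand) and *Chrng* (chr1:87205561-87205810, plus strand).
Myog: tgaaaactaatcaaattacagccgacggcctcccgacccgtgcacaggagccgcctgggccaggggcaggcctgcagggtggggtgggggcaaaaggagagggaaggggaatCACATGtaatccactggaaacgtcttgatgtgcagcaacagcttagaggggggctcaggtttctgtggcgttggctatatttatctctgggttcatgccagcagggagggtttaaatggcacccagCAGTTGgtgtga
Chrna1: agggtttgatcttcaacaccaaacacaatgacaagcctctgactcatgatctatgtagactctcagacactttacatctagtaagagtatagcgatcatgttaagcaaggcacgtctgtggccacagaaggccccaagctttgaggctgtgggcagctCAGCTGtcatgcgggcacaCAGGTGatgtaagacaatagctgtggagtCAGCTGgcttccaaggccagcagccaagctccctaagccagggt
Chrng: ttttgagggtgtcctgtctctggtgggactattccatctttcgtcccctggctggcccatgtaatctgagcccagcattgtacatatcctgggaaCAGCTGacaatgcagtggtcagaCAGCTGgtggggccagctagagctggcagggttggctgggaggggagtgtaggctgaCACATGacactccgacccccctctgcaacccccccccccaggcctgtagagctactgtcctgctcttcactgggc
The windows searched ran from 250 bases before to 50 bases after each start, on both strands, and CAGCTG and CAGGTG are themselves forms of CANNTG. *Chrna1* held 3 E-boxes, with CAGCTG beginning at -92 and -44 and CAGGTG at -73 from the start. *Chrng* also held 3, with CAGCTG at -155 and -132 and another form at -75. The RefSeq start of *Chrng* lies inside the gene as GENCODE draws it, so this window is not upstream of every annotated transcript. A promoter with at least 2 copies of CAGCTG was found in 1.9% of all 32851 promoter sequences, and one with at least 3 E-boxes of any form in 17.6%. *Myog* held 2 E-boxes, at -138 and -12, *Myh8* held 2, at -32 and 7, and *Myh3* held 1, at -191, none of them CAGCTG or CAGGTG (or its reverse complement CACCTG). At least 1 E-box of any form is found in 72.3% of promoters, and *Pax7* and *Myf5* held none. A match of letters in these windows is a description and not a bound site.

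**Figure D1:**
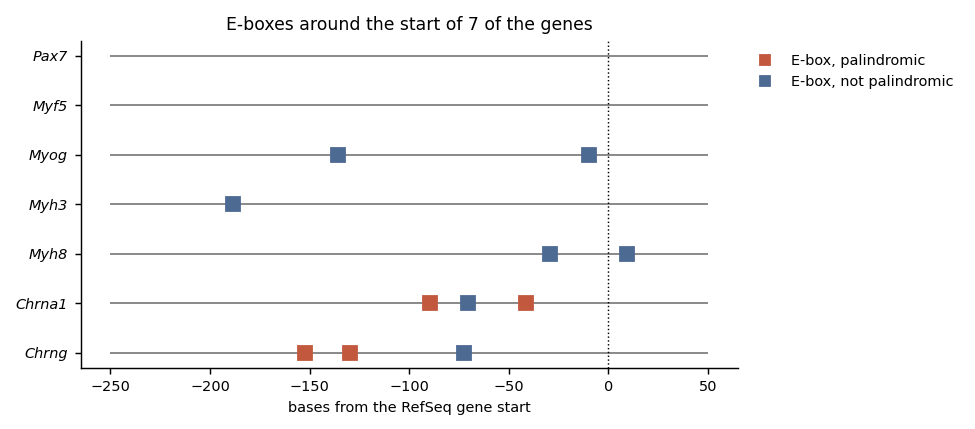
E-boxes (squares) along the promoters of 7 genes, 1 line per gene, with the horizontal axis in bases from the RefSeq gene start (dotted line at 0). Palindromic E-boxes (red) were found in *Chrna1* and *Chrng*, 2 in each, while *Pax7* and *Myf5* held no E-box in this window.

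The genes lie apart in the genome except for neighbours. In GRCm38/mm10, with GENCODE M21 coordinates, *Myf5* (chr10:107482908-107486134) and *Myf6* (chr10:107492853-107494737) lie next to each other on the minus strand, and *Myh3* (chr11:67078300-67102291) and *Myh8* (chr11:67277124-67308634) lie on the plus strand of chromosome 11 in a cluster with the adult myosins *Myh2*, *Myh1* and *Myh4*. *Pax7* is at chr4:139737062-139833528 (minus), *Myod1* at chr7:46376474-46379099 (plus), *Myog* at chr1:134289989-134292548 (plus), *Mymk* at chr2:27061636-27072179 (minus), *Chrna1* at chr2:73563215-73580338 (minus) and *Chrng* at chr1:87204657-87212694 (plus). All are protein-coding, values were summed over exons of the whole gene, and no member shares exon bases with another annotated gene. Near-identical copies matter for the myosins. Of the 100-base stretches of the longest protein-coding transcript, 6.61% for *Myh8* and 1.15% for *Myh3* occur in another myosin gene. Reads could thus be split between these genes. For *Myh8* this transcript holds 6149 of the 11772 exon bases, and the remainder was not searched. The adult myosins are far more abundant, with a control median of 2380 CPM per kilobase of exon for *Myh1* against 30.4 for *Myh8*, so the share of *Myh8* reads that stem from them has no limit set by these figures, and the values of *Myh8* are uncertain.

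Library totals ran from 11153820 to 27045668 counts, and 3 counts, the limit that a count of 0 allows, correspond to 0.0964 to 0.246 CPM (counts scaled to a common library size) across the libraries. The targeted gene did not follow the labels: *Loxl2* had a median of 109.7 CPM (28.8 to 126) in the libraries labelled knockout and 70.4 CPM in control, where replicate 8 was lowest and replicate 4, at 104 CPM, highest (log2 fold change 0.64, SE 0.28, edgeR adjusted p = 0.101). These libraries are therefore named by their label throughout. Muscle was present in all of them: 20 skeletal muscle genes, among them those of actin and creatine kinase, summed to 60310 to 198900 CPM (median 90930) in control and 43530 to 102200 CPM (median 72780) in the other group. Control replicate 8 stood apart, with the highest sum of these and the lowest sum of 10 chondrocyte genes, 130.2 CPM against 1575 to 5756 CPM in the other 19 libraries, and values without it are given beside the results that it moves. Over all genes, edgeR called 3673 of 15984 tested genes, 1918 higher and 1755 lower, and with library totals alone as scaling it called 2188 higher and 849 lower. All fold changes compare the libraries labelled knockout with control, and p-values cover the spread between these libraries, of which there are as many as the mice in the methods, although the labels do not tie a library to an animal.

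Of the 10 genes, 8 had enough counts to be tested and *Myod1* alone passed, at lower levels in the libraries labelled knockout. That is 1 of 8 members, beside 23.0% called over all genes by the same rule and 11% called lower. Whether the share of members differs from these was not tested. By the Wald test of DESeq2, under which 22.3% of genes were called, by edgeR with no filter (8.74%) and with the replicate number as a block (11.5%), the members called were 1, 0 and 0. The median log2 fold change of the 8 was -0.32, with 6 negative and 2 positive, beside -0.02 over all genes tested. The groups overlapped in CPM for all 10 genes, and over all genes the groups were apart for 0.3%.

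The levels spanned a wide range between genes. Per kilobase of exon and over all 20 libraries, the median was 43.1 CPM for *Myf6*, followed by 35.4 for *Myh8*, 9.33 for *Myod1*, 2.60 for *Myh3*, 1.69 for *Myog*, 0.631 for *Myf5*, 0.562 for *Chrna1*, 0.555 for *Pax7*, 0.0335 for *Mymk* and 0.0158 for *Chrng*. *Myh8* was above *Myod1*, and *Myog* above *Myf5*, in 20 of 20 libraries. On transcript length in place of all exon bases, which for *Myh8* is 6149 in place of 11772 bases, *Myh8* (67.7) was above *Myf6* (43.1), in 16 of 20 libraries, so the order of these top genes depends on the length used. On exon length, *Myf6* was above *Myh8* in 14 of 20, *Myf5* above *Chrna1* in 9, *Myh3* above *Myog* in 13, *Pax7* below *Chrna1* in 11 and *Mymk* above *Chrng* in 10, so these neighbours were not ordered in every library.

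**Figure D2:**
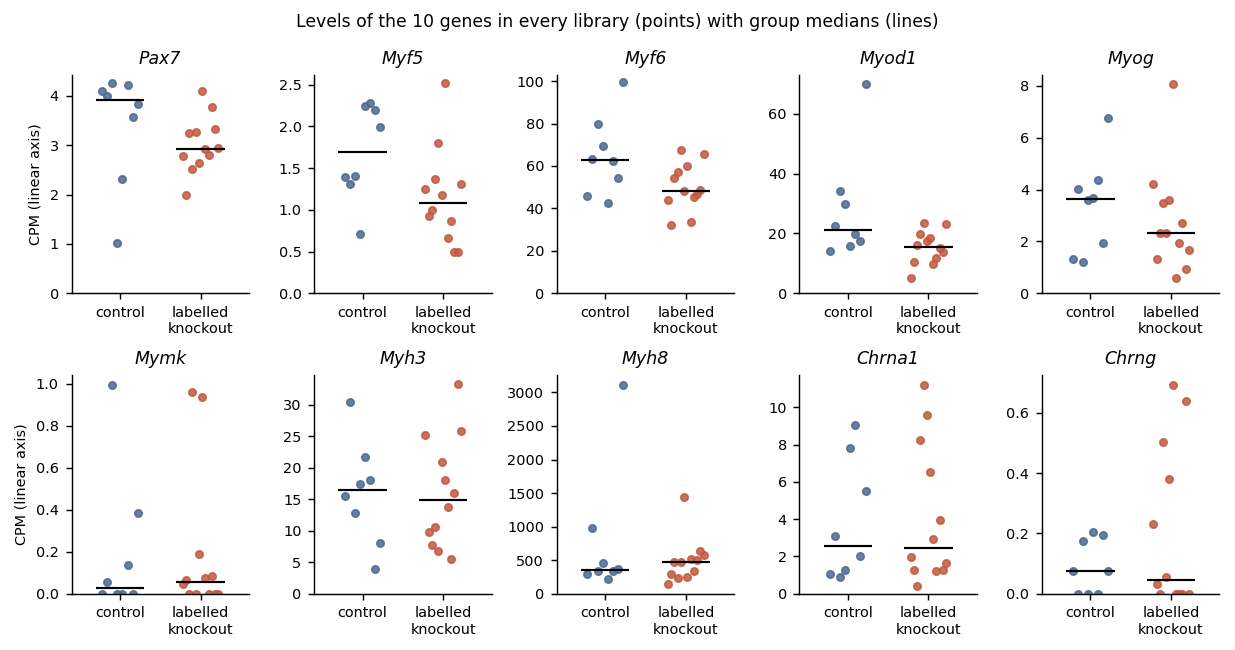
Levels of the 10 genes in CPM on linear axes, with 1 point per library and the median of each group as a line, for 8 control libraries (blue) and 12 libraries labelled knockout (red). All 10 pairs of groups overlap, control replicate 8 is highest among control libraries for *Myf6*, *Myod1*, *Myog* and *Myh8*, and *Mymk* and *Chrng* lie at or near 0 in most libraries.

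*Pax7*, which maintains the satellite cell pool, was at 1.01 to 4.27 CPM in control (median 3.92) and 1.99 to 4.10 CPM (median 2.93) in the libraries labelled knockout. Of the latter, 11 were below the control median, yet the lowest value of all was control replicate 4, with 17 counts. The difference did not pass the test (log2 fold change -0.18, SE 0.21, edgeR adjusted p = 0.57). *Pax7* was the least variable of these genes in the libraries labelled knockout, with a coefficient of variation of 18.7%. The 3 protein-coding genes whose levels followed it most closely over the 20 libraries, after each group's mean was subtracted, were *Fgfr4* (Spearman's rho 0.75), a receptor found in satellite cells and myoblasts, *Dennd2c* (0.70) and *Pank2* (0.70).

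*Myf5*, the earliest of the 4 factors in development, was at 0.715 to 2.28 CPM in control (median 1.70) and 0.492 to 2.52 CPM (median 1.09) in the libraries labelled knockout. Of the 12, 10 were below the control median, and the highest value of all was replicate 7 of that group. The fitted log2 difference was -0.53 (SE 0.292, edgeR adjusted p = 0.188). *Adgre5* (rho 0.79), *Slc10a6* (0.78) and *Rhob* (0.76) followed it most closely.

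*Myod1*, the determination factor of activated satellite cells, which is also expressed in fast fibres, was at 14.1 to 69.8 CPM (median 21.3) in control and 5.14 to 23.4 CPM (median 15.5) in the libraries labelled knockout. Of the 12, 10 were below the control median and 5 were below the lowest control, while control replicate 8 held the value of 69.8 CPM, with the next control at 34.2. The group means were 27.9 CPM ± 18.3 (SD, n = 8) against 15.4 CPM ± 5.52 (SD, n = 12). *Myod1* fell by 0.86 on the log2 scale (SE 0.282, edgeR adjusted p = 0.0324), while the DESeq2 estimate was -0.87 (adjusted p = 0.0151). Without control replicate 8 the log2 fold change was -0.50 (adjusted p = 0.151). The call was also lost without control replicate 3 or 4, or without replicate 2 or 8 of the libraries labelled knockout, and it was kept in the other 15 of these 20 fits. Of 13 other alternatives it was lost in 8, among them library totals alone (-0.65, edgeR adjusted p = 0.0623), 16 libraries without a block (-0.89, adjusted p = 0.0706) and the *Myh4* to *Myh2* ratio as covariate (-0.56, adjusted p = 0.0774). The genes nearest to *Myod1* were *Tob1* (rho 0.93), *Smyd1*, a methyltransferase of the sarcomere (0.93), and *Rnf11* (0.90).

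*Myf6* encodes MRF4, the factor most expressed in mature fibres. It ran from 42.7 to 99.7 CPM (median 62.8) in control and from 32.1 to 67.4 CPM (median 48.3) in the libraries labelled knockout. As for *Myod1*, 10 of 12 lay below the control median, and control replicate 8 was highest. The log2 difference of -0.36 (SE 0.156) did not pass (edgeR adjusted p = 0.0948), and with 1 library left out it ran from -0.43 without control replicate 5 (adjusted p = 0.0458, the 1 of 20 fits that passed) to -0.235 without control replicate 8 (adjusted p = 0.283). *Cavin4*, a protein of muscle caveolae (rho 0.93), *Pdlim5* (0.92) and *Rnf11* (0.91) were nearest to it. Among the 8 tested members *Myf6* and *Myod1* were nearest to each other (rho 0.92 over 20 libraries), and the next pairs were *Chrna1* with *Myog* (0.59) and with *Myf5* (0.57).

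*Myog* encodes myogenin, which drives differentiation. Its level was 1.23 to 6.74 CPM (median 3.63) in control and 0.585 to 8.05 CPM (median 2.32) in the libraries labelled knockout, where replicate 7 was highest. The groups spanned each other, and the fitted log2 difference was -0.27 (SE 0.399, edgeR adjusted p = 0.657). Leaving out control replicate 8 gave -0.04 and leaving out replicate 7 labelled knockout gave -0.55, neither past the threshold. *Mymk*, the fusion protein gene, was below the filter, at 0 to 17 counts in control and 0 to 21 counts in the other group. It was at 0 in 4 of 8 and 5 of 12 libraries, and only control replicate 3 (17 counts) and replicates 4 (21 counts) and 7 (19 counts) of the libraries labelled knockout were above 5 counts. Mean log2 CPM differed by -0.0146 (exact permutation p = 0.981, two-sided), and at this depth a difference was not detectable.

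The 20 skeletal muscle genes were lower in the libraries labelled knockout than in control: 12 of them were called lower and none higher, and all 20 had a negative log2 fold change, with a median of -0.575. Over all genes tested, 11% were called lower. Without control replicate 8, 2 of the 20 were called lower, with a median of -0.434. Their mean log2 CPM, used here as a muscle score, was 11.1 ± 0.564 (SD, n = 8) among control libraries, against 10.5 ± 0.415 (SD, n = 12) in those labelled knockout (difference -0.64, exact permutation p = 0.00724, two-sided), and the difference stayed past the threshold with each library left out in turn, between -0.76 and -0.49. With library totals alone as scaling, 8 of the 20 genes were called lower, with a median of -0.402. In a bulk sample, fewer muscle cells, less RNA per muscle cell and more RNA from other tissue cannot be told apart. The score differed between the groups, so a fit with both shares information between them. With the score as a covariate *Myod1* was at -0.03 on the log2 scale (SE 0.196, edgeR adjusted p = 0.948), 292 of 15984 genes (1.83%) were called and none of the 8 members was among them. *Myf6* was then at 0.05, *Myog* at 0.09, *Myh8* at 0.60 and *Chrna1* at 0.59 on the log2 scale, and *Pax7* at -0.19, *Myf5* at -0.41 and *Myh3* at -0.21, all with adjusted p above the threshold. Expressed per library as log2 CPM minus the score, *Myod1* differed by -0.122 (exact permutation p = 0.491, adjusted p = 0.576) and *Myf6* by 0.295 (exact permutation p = 0.029, adjusted over the 8 genes p = 0.232), and no member passed after adjustment.

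**Figure D3:**
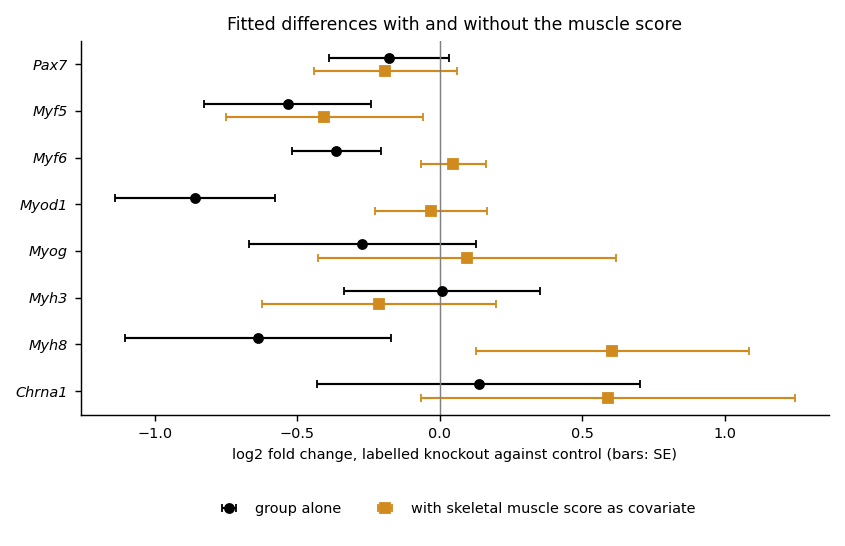
Log2 fold change of the 8 tested genes (points, with SE as bars) for the libraries labelled knockout against control, with the group alone (black) and with the skeletal muscle score added as a covariate (orange). *Myod1* moves from -0.86 to -0.03, and *Myh8* from -0.64 to 0.60.

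Within the groups, the members were compared with the muscle score, which does not separate the amount of muscle from fibre type. The score was highest, at 12.19, in control replicate 8, where *Myh4* held 39.3% of the myosin heavy chain level per exon length. *Myf6* correlated with the score in control (Pearson's r 0.84, permutation p = 0.0095, adjusted p = 0.038; Spearman's rho 0.71, permutation p = 0.0576, adjusted p = 0.184) and in the libraries labelled knockout (r 0.82, permutation p = 0.00132, adjusted p = 0.016; rho 0.83, permutation p = 0.00115, adjusted p = 0.0184). *Myod1* did so as well, with r 0.88 in control (permutation p = 0.00469, adjusted p = 0.025; rho 0.74, permutation p = 0.0458, adjusted p = 0.184) and 0.78 in the other group (permutation p = 0.002, adjusted p = 0.016; rho 0.77, permutation p = 0.00452, adjusted p = 0.0362). The rank correlations in control thus did not pass after adjustment. Without the 2 libraries farthest from the median score, r was 0.56 for *Myf6* and 0.53 for *Myod1* in control, and 0.76 and 0.70 in the libraries labelled knockout. None of the other 6 genes correlated with the score after adjustment over the 16 relations. *Pax7* gave r -0.24 (permutation p = 0.528) and 0.31 (permutation p = 0.328), and *Myh8* gave 0.74 in control (permutation p = 0.0439, adjusted p = 0.14), which was 0.105 without control replicates 1 and 8. *Myog* gave 0.64 in control (permutation p = 0.083, adjusted p = 0.221) and 0.00757 in the other group (permutation p = 0.982). Differences between the genes' correlations were not tested.

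**Figure D4:**
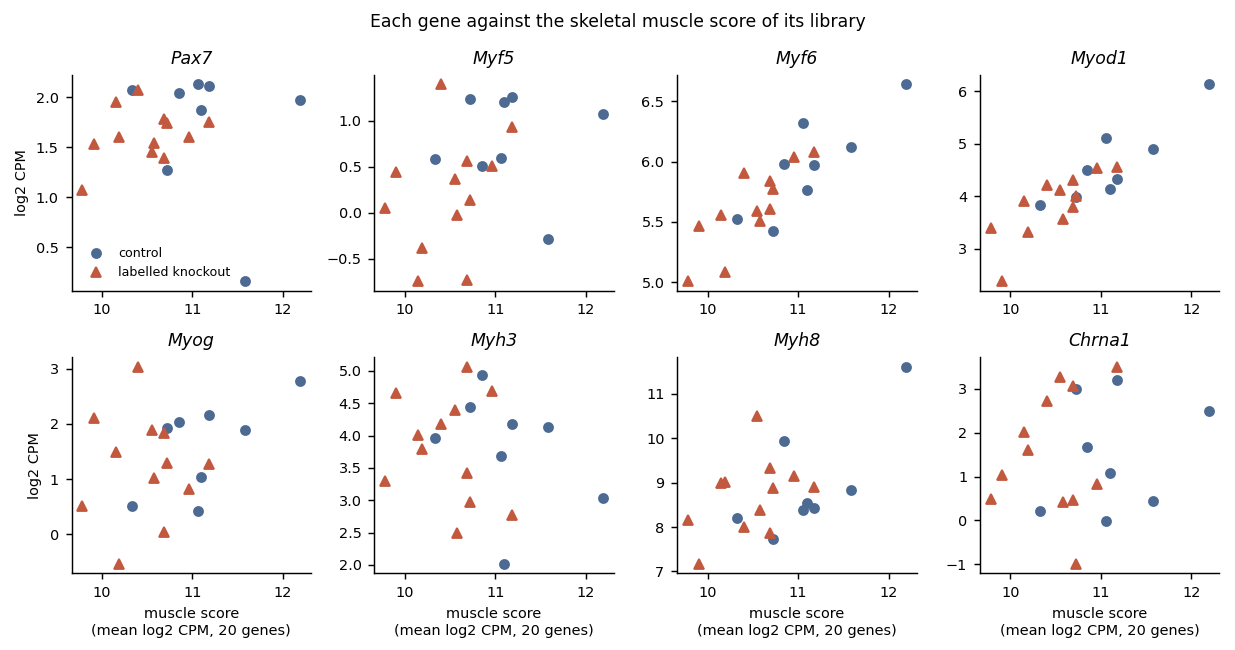
Log2 CPM of each of the 8 tested genes against the skeletal muscle score of the library (mean log2 CPM of 20 muscle genes), with control as circles and libraries labelled knockout as triangles. *Myf6* and *Myod1* rise with the score in both groups (r 0.84 and 0.82 for *Myf6*), and the other 6 genes did not pass after adjustment (*Pax7* r -0.24 in control and 0.31 in the other group).

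*Myh3*, the embryonic myosin heavy chain, was at 3.95 to 30.4 CPM (median 16.4) in control and 5.56 to 33.2 CPM (median 14.8) in the other group. The log2 difference was 0.01 (SE 0.344, edgeR adjusted p = 0.989), and its sign changed in 8 of 20 fits with 1 library left out and in 8 other alternatives. *Pbdc1* (rho 0.84), *Myl6b*, an alkali myosin light chain (0.82), and *Tnni1*, the slow troponin I (0.80), followed it. *Myh8*, the perinatal form, was at 212 to 3114 CPM (median 358) in control and 145 to 1448 CPM (median 472) in the libraries labelled knockout. Control replicate 8 (3114 CPM), replicate 6 of the libraries labelled knockout (1448 CPM) and control replicate 2 (974 CPM) were above all others, and the groups overlapped throughout. The log2 difference of -0.64 (SE 0.467, edgeR adjusted p = 0.333) changed sign to 0.21 without control replicate 8, and was 0.20 by DESeq2. *Slc44a2* (rho 0.81), *Dnajc18* (0.77) and *Kctd7* (0.75) followed it most closely.

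Per exon length, *Myh3* and *Myh8* together made up 0.697 to 3.13% of the sarcomeric myosin heavy chain level in control (median 0.829%) and 0.833 to 5.22% (median 1.31%) in the libraries labelled knockout. Means were 1.36% ± 0.993 (SD, n = 8) for control and 1.75% ± 1.21 (SD, n = 12), a difference of 0.382 (exact permutation p = 0.512, two-sided). On transcript length the shares were higher, at 1.11 to 5.67% (median 1.42%) and 1.23 to 8.43% (median 2.23%), with a difference of 0.58 (exact permutation p = 0.538). *Myh8* made up 74.7 to 99.5% of the developmental share on exon length (median 93.5%), and *Myh3* reached at most 0.158% of the myosin level in control and 0.211% in the other group. The highest shares were those of replicate 6 labelled knockout (5.22%), control replicate 8 (3.13%) and control replicate 2 (2.76%). The adult fast myosin *Myh1* held 45.0 to 75.6% in control and 31.8 to 73.8% in the other group, and *Myh4*, of the fastest fibres, held 39.3% in control replicate 8. The abundant adult myosin genes did not pass the test (*Myh1* -0.70, edgeR adjusted p = 0.101; *Myh2* -0.24, adjusted p = 0.635; *Myh4* -2.41, adjusted p = 0.137), while *Myh7b*, at a low level, was lower (log2 fold change -1.74, edgeR adjusted p = 0.0178), the 1 call among 6 tested. Control replicate 5 held 13.6 CPM of *Myh7b*, and without it the log2 fold change was -0.90 (adjusted p = 0.116).

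**Figure D5:**
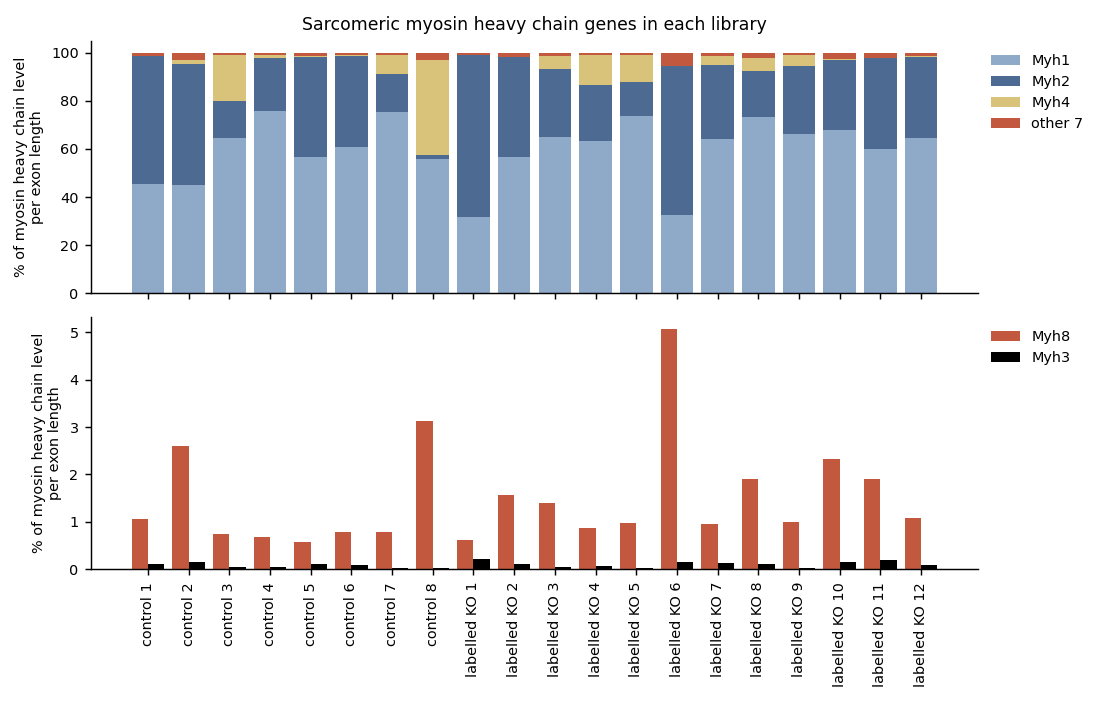
Share of each myosin heavy chain gene, in percent of the summed level per exon length, in every library, with *Myh1*, *Myh2*, *Myh4* and the other 7 genes stacked in the upper panel, and *Myh8* and *Myh3* alone in the lower. *Myh1* and *Myh2* make up most of the level in nearly every library, *Myh4* reaches 39.3% in control replicate 8, and the 2 developmental forms reach 5.22% together in replicate 6 labelled knockout.

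*Chrna1*, the ligand-binding alpha subunit of the receptor, was at 0.876 to 9.06 CPM (median 2.54) in control and 0.398 to 11.2 CPM (median 2.44) in the other group. It varied more than 10-fold within each group, and the log2 difference was 0.14 (SE 0.568, edgeR adjusted p = 0.889). *Chrne*, the adult epsilon subunit gene, was the gene nearest to it of all 13958 compared (rho 0.90), and *Chrnd*, the delta subunit gene, was also among the 3 nearest (0.81). *Chrne* ran from 0.225 to 15.8 CPM in control and from 0.142 to 25.8 CPM in the libraries labelled knockout (log2 fold change -0.53, edgeR adjusted p = 0.681), and *Chrnb1*, the beta subunit gene, held 26.0 CPM ± 5.79 (SD, n = 8) and 25.5 CPM ± 9.58 (SD, n = 12).

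*Chrng*, the fetal gamma subunit, was below the filter. It held 0 to 3 counts in every control library, with 3 of 8 at 0, and 0 to 14 counts in the libraries labelled knockout, with 5 of 12 at 0. Replicates 7 (14 counts), 4 (11 counts), 6 (10 counts), 11 (9 counts) and 1 (5 counts) of the latter were above every control library, while the other 7 lay at 0 or 1 count. The mean log2 CPM did not differ by more than the spread (difference 0.34, exact permutation p = 0.484, two-sided). On the scale of the edgeR fit with no filter the log2 fold change was 1.19 (SE 0.963, adjusted p = 0.444), a value that depends on the prior count. The log2 ratio of *Chrng* to *Chrne*, fetal against adult subunit, was -4.58 ± 2.06 (SD, n = 8) for control libraries, against -2.90 ± 2.25 (SD, n = 12) for those labelled knockout (difference 1.68, exact permutation p = 0.108, two-sided), with most *Chrng* counts at or under the floor of 3. Of this difference *Chrng* held 0.34, and the remainder came from *Chrne*, which was itself low in some libraries. *Chrne* held 6 counts in control replicate 1 and 2 to 458 counts in the libraries labelled knockout. The ratio difference passed the threshold without control replicate 1 (2.21, exact permutation p = 0.0343) or without replicate 5 labelled knockout (2.09, exact permutation p = 0.0337). In replicate 7 labelled knockout, *Pax7*, *Myf5*, *Myog* and *Chrng* were each at the highest value of their group, and *Mymk* was second. So 4 of the 10 genes peaked in that library, beside 3 in replicate 5 of the same group and 4 in control replicate 8 within control.

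Of 15 satellite cell genes, *Calcr* (1.82, edgeR adjusted p = 0.0383) and *Vcam1* (0.90, adjusted p = 0.0107) rose and none fell, beside 12% higher and 11% lower over all genes tested. *Calcr*, the calcitonin receptor, is also an osteoclast gene, and *Vcam1* is expressed by other cells too, while *Cdh15*, the M-cadherin gene of satellite cells, did not pass (-0.18, adjusted p = 0.396). Without control replicate 8, 1 of the 15 was higher and 1 lower. With the muscle score as covariate none of the 15 was called higher and 1 was called lower. Of 14 tested cofactors of muscle differentiation and fusion, 8 fell and none rose (median log2 fold change -0.38), among them *Rbm24* (-0.66, adjusted p = 0.00461), a splicing regulator of muscle, and *Smyd1* (-0.63, adjusted p = 0.0079). Without control replicate 8, 4 of 14 were lower, and with the muscle score as covariate none was called.

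Inhibitors of the myogenic factors included 4 of 13 called higher and 1 lower, with a median log2 fold change of 0.46. Over all genes tested, 12% were called higher and 11% lower, which is the background for the lists that follow as well. *Snai1* (1.15, edgeR adjusted p = 0.0105) and *Twist1* (1.10, adjusted p = 0.00607), transcription repressors of mesenchymal cells, rose, and *Mstn* (-1.01, adjusted p = 0.0262), the muscle-derived inhibitor of muscle growth myostatin, fell. The *Mstn* call was lost, among other alternatives, without control replicate 8 (-0.53, adjusted p = 0.149), without control replicate 3 (-0.94, adjusted p = 0.0518), with library totals alone (-0.77, adjusted p = 0.0582) and under the replicate block (-0.75, adjusted p = 0.101). Of 13 acetylcholine receptor and endplate genes, *Lrp4* (1.14, adjusted p = 0.0172), the agrin receptor, which bone cells express as well, was the one called. Of 13 genes that respond to denervation, *Runx1* (0.73, adjusted p = 0.0142) rose and 4 fell, including the ubiquitin ligase gene *Trim63* (-0.61, adjusted p = 0.0086) and the histone deacetylase gene *Hdac9* (-0.58, adjusted p = 0.00442), and 3 were lower without control replicate 8. The list does not say in which direction each gene responds, so genes that fell need not share a direction of response. With the muscle score as covariate no gene of these 3 lists was called. Of 8 other developmental sarcomere genes none was called, and *Tnnc1* (-1.10, adjusted p = 0.111) and *Myl3* (-0.89, adjusted p = 0.131) had the smallest p.

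Markers of some other cells moved with the groups, beside 12% of all tested genes called higher and 11% called lower. All 10 osteoclast genes were called higher (median log2 fold change 2.70), as were 6 of 7 macrophage genes, 5 of 6 mast cell genes tested, 4 of 8 osteoblast and osteocyte genes, 3 of 6 tendon and ligament genes, 2 of 8 tested chondrocyte genes and 1 of 8 neutrophil genes, whereas none of the Schwann cell, erythroid, endothelial or adipocyte genes was. Without control replicate 8 the osteoclast, chondrocyte and neutrophil genes called were 9, 1 and 0. With the muscle score as covariate, 1.83% of all genes were called, among them 1 osteoclast and 1 macrophage gene, both higher. No mast cell, osteoblast and osteocyte, tendon and ligament, chondrocyte or neutrophil gene was called in that fit. Under the replicate block the osteoclast, macrophage, mast cell and tendon and ligament genes called were 9, 7, 4 and 2. No osteoblast and osteocyte, chondrocyte or neutrophil gene was called there. The summed osteoclast level was 117.8 to 1404 CPM in control and 602.8 to 7955 CPM in the libraries labelled knockout. The genes of chondrocytes, in which the Cre line acts, summed to 130.2 to 3290 CPM and 2064 to 5756 CPM. Their part in the values of *Myod1* and the lists above was not tested.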

How the data were processed

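RNA was extracted with TRIzol, and paired-end libraries were sequenced on an Illumina platform. Per the methods, the authors trimmed reads with an in-house script, mapped them to mm10 and counted them with featureCounts 1.5.0-p3, and the deposited table holds these raw counts per gene. The aligner, its version, the annotation release, strand use and the treatment of multi-mapped reads are not given in the sources used here. The titles of the samples gave group and replicate number. Of 54532 genes, 54495 were matched to GENCODE M21 for symbols and coordinates. The smallest chi-square per degree of freedom among 190 pairs of libraries was 32.9, so none was a duplicate.

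Genes were filtered by filterByExpr, libraries scaled by TMM and the groups compared with edgeR 4.0.16 (R 4.3.3, limma 3.58.1), using the quasi-likelihood F-test, two-sided, with Benjamini-Hochberg adjustment over 15984 genes and a threshold of 0.05. The study used DESeq2, which was run in version 1.42.0 as an alternative. CPM use TMM-scaled library sizes, and log2 CPM use a prior count of 2. For single values, the exact permutation test (two-sided) enumerated 125970 assignments of libraries to groups, and correlations used all 40320 pairings in control and 100000 resamples in the libraries labelled knockout. Floors cover counting error only, while each SE comes from the edgeR fit and each SD from the spread between libraries. In simulated counts with 200 genes shifted by a log2 fold change of 1.5, edgeR recovered 85% of them over 15716 genes, and 5.03% of its calls were false. The fitted differences of the tested members were smaller than 1.5, and recovery at their size was not simulated.

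The 10 genes and all lists were chosen with earlier results of these data known. Genes named from the lists are up to 2 higher and 2 lower with the largest fold change past the threshold and a mean of at least 1 CPM, or the 2 with the smallest p where none passed. For each tested member, the 3 protein-coding genes with the highest Spearman's rho over the 20 libraries, group means removed, are named without a test. *Cdh15* was named after its value was seen. Alternatives were other scalings, filters, dispersion and tools, a replicate block, muscle covariates and the omission of each library in turn. A muscle score without *Tnnc2* (3 to 31 counts), the *Myh4* to *Myh2* ratio as covariate, the omission of control replicate 8 with replicate 6 labelled knockout, and transcript length for the myosin share were chosen after seeing the data.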

Additional observations from a re-analysis of the deposited data

Results flagged for a closer look

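*Pax7* in control replicate 4 stood apart from the other 7 control libraries. It was at 1.01 CPM (17 counts), against a control median of 3.92 CPM, and the gap to its nearest neighbour was 0.566 of the group's range on the log2 scale, above Dixon's critical value for 8 samples. The 10 genes were each looked at this way in control, and chance alone marks about 1 group in 20.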

How the results depend on the processing

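Most values kept their direction and their side of the threshold. The 3673 genes called became 3280 in the 16 libraries whose replicate numbers both groups share and 1786 in these with the number as a block, 292 with the muscle score as covariate, 213 with the score without *Tnnc2*, and 2269 without control replicate 8 and replicate 6 labelled knockout, and 2551 to 4181 with each library left out in turn. The 1 member called became 0 with library totals alone, with no filter, with the block, with the same 16 libraries and no block, with either muscle score or the *Myh4* to *Myh2* ratio as covariate, and without both of those libraries, and 0 to 2 with 1 library left out. *Myod1* itself was at -0.65 (edgeR adjusted p = 0.0623) with library totals, under which the median of all genes rose to 0.12, at -0.84 (0.0502) with no filter and at -0.80 (0.12) under the block. Replicate numbers did not pair the libraries, since 2 of 8 same-numbered pairs correlated above 0.1 (range -0.36 to 0.17) and 0 of 8 control libraries correlated best with their own number.

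Signs changed as follows, none past the threshold and the cause was not tested. *Myf6* was at 0.047 and 0.0576, *Myog* at 0.0941 and 0.0744, and *Myh8* at 0.605 and 0.659 with the muscle scores, and *Myh8* at 0.199 with DESeq2 and -0.921 to 0.21 with 1 library left out (0.21 without control replicate 8). *Myh3* was at -0.00133 with DESeq2 size factors, -0.00624 with upper-quartile factors, -0.141 with the block, -0.182 with those 16 libraries and no block, -0.213 and -0.199 with the muscle scores, -0.227 with the *Myh4* to *Myh2* ratio, -0.117 without both libraries, and -0.139 to 0.216 with 1 left out. *Chrna1* ran from -0.101 to 0.45 and *Myf5* relative to muscle from -0.136 to 0.204 with 1 library left out, and the latter was at -0.0383 without both. The *Chrng* to *Chrne* difference did not change sign with 1 library left out. It ran from 1.28 to 2.21 (exact permutation p = 0.0337 to 0.216) and passed the threshold in 2 of these fits.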
